A study of Homo sapiens with 6 samples.

Results

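Histone H3 acetylated at lysine 27 (H3K27ac) was mapped in the triple-negative breast cancer line MDA-MB-231, and 4067 wide regions were listed after PKM2 knockdown with no counterpart in the control. The regions were chosen by measured values, namely their width in the PKM2-KD list and their lack of overlap with the NC list. A region of the H3K27ac PKM2-KD library was counted here when it lay on chromosomes 1 to 22, had a width of 4 or more times 113 bp (the narrowest width in its list) and overlapped no H3K27ac NC region of any width. These were 4067 of the 29108 wide PKM2-KD regions, of the 208488 PKM2-KD regions of any width, and of 972622 regions over all 6 libraries. They are called PKM2-KD-only regions below, and the other 25041 wide PKM2-KD regions are called shared. The rule itself selects 14% of the wide regions, so that share is a description and not a result.

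The series used CUT&Tag, in which an antibody directs the Tn5 transposase to a chromatin protein so that the DNA beside it is released and sequenced. NONO was profiled in NC (labelled WT) and NONO-KD cells, and H3T11ph and H3K27ac were each profiled in NC and PKM2-KD cells, all MDA-MB-231, with 1 library per group and no replicates. NONO is an RNA- and DNA-binding nuclear protein, and H3T11ph is phosphorylated threonine 11 of histone H3. The study's methods describe siRNA and shRNA knockdowns without saying which was used for these libraries, and the lists hold no expression value by which the loss of PKM2 could be checked.

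H3K27ac is written by acetyltransferases such as p300 and CBP, is removed by histone deacetylases, and is bound by bromodomain proteins. It marks active promoters and enhancers, where it neutralises a lysine charge on nucleosomes beside open DNA. PKM2 is an isoform of pyruvate kinase, an enzyme of glycolysis, that has also been found in the nucleus and has been described as a kinase of histone H3.

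The sequences below show promoters lying within a PKM2-KD-only region. Among genes with no NC region within 1 kb of either end, they are the 4 with the highest fold whose 250 bases before the annotated start were at least 95% inside such a region and in no annotated gene. Each is written 5′ to 3′ on the strand of its gene, from RefSeq (GRCh38.p14). Capitals mark GGGCGG or its complement (the GC box) in SNX6 and WWOX, TGTGGTT (a RUNX motif) in PI16 and CCGGAAG (an ETS motif) in CCDC9.
SNX6, minus strand, chr14:34630149-34630398: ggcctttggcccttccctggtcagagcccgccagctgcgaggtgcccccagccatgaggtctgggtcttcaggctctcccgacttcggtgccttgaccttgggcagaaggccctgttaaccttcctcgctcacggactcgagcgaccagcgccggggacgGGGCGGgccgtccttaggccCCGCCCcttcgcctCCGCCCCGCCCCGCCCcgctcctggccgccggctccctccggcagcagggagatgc
PI16, plus strand, chr6:36948046-36948295: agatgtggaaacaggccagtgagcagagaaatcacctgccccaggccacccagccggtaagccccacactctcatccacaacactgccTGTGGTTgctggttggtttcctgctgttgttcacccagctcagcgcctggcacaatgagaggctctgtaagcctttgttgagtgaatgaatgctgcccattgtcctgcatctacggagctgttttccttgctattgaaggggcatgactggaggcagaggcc
WWOX, plus strand, chr16:78099404-78099653: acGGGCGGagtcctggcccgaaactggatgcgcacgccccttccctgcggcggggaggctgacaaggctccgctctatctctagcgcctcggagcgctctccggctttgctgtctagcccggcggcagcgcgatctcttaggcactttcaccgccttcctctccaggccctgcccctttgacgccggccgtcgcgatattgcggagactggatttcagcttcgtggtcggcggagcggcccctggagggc
CCDC9, plus strand, chr19:47256275-47256524: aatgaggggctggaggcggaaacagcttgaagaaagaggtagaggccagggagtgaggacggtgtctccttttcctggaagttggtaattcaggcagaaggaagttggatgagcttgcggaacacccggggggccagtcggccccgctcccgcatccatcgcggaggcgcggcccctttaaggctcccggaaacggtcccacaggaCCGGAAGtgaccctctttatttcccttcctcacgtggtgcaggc

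SNX6, WWOX and CCDC9 had GC-rich promoters with 28, 38 and 22 CpG in the 300 bases around the start, whereas PI16 had 3. SNX6 encodes a sorting nexin of endosomal trafficking, and its region (630 bp, fold 15.2) covered the start of the gene. The nearest NC region lay 5370 bp away. WWOX, a gene across the fragile site FRA16D that has been described as a tumour suppressor, carried a 652 bp region with a fold of 12.8, and the nearest NC region lay 4643 bp away. PI16 encodes a secreted peptidase inhibitor, and its region (669 bp, fold 13.6) lay 949 bp from an NC region. The fold is the authors' ratio of signal at the summit to the local background within that library.

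The PKM2-KD-only regions were narrower and lower than the shared ones. The widest measured 2898 bp and the median was 554 bp, against a median of 793 bp for shared regions. Their fold ran from 1.33 to 40.8 with a median of 7.16, against 13.6. The height of the summit was recovered from the deposited fold and −log10 p, and ran from 6 to 125 fragments with a median of 16, against 35. These values come from the contrast that chose the regions and are given as a description. Recovered depth was 7.46 fragments per kb in NC and 7.47 in PKM2-KD. It was derived from the lists, as the commonest background divided by a pileup factor and by the narrowest width. The factor was 0.521 for NC, itself fitted to the NC list, and 1 for PKM2-KD. The depth is thus not a count of sequenced reads.

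The peak lists of the H3K27ac pair had not been made alike, which bears on every region here. Regions of 112 bp, the narrowest of the NC list, made up 79.1% of that list, while those of 113 bp, the narrowest of the PKM2-KD list, made up 1.19%. Where the commonest background applied, the lowest height listed was 6 fragments in NC and 5 in PKM2-KD. Of the PKM2-KD-only regions, 79.3% stood at 12 fragments or more, which is 2 times that lowest NC height. However, 57.4% of them stood on a background above the commonest of their library, where a region needs more fragments to be listed. The 79.3% therefore does not give the share at 2 times what listing in NC needed at the same place. A height of 20 or more was found in 1346 of them (33.1%) and in 18890 of the 23607 shared regions whose height was recovered. The share that was PKM2-KD-only fell with width, from 32.4% of wide regions below 500 bp to 1.09% of those of 1200 bp or more, and fell with height, from 54.2% below 8 fragments to 3.75% at 30 or more. The shares by height leave out 1435 wide regions whose height was not recovered, of which 1 was PKM2-KD-only.

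**Figure D1:**
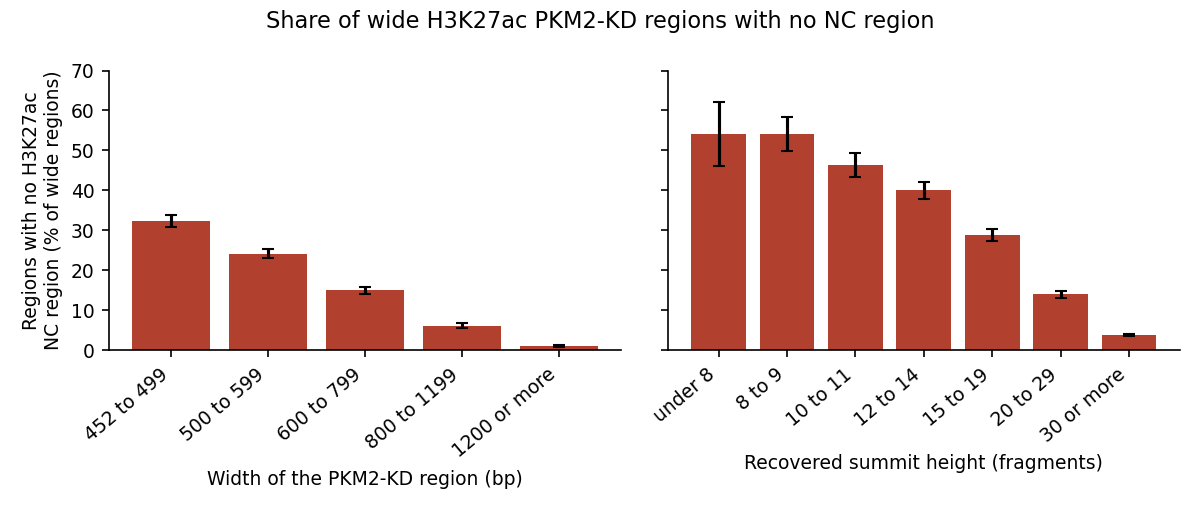
Share of wide H3K27ac PKM2-KD regions that overlapped no H3K27ac NC region (percent, vertical axis), by region width in bp (left) and by recovered summit height in fragments (right). Bars are shares and lines are 95% Wilson intervals (counting error only). The share runs from 32.4% down to 1.09% over the width bands, and is 3.75% at 30 fragments or more, without the 1435 regions whose height was not recovered.

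The median distance from a PKM2-KD-only region to the nearest NC region was 658 bp. For the 134987 narrower PKM2-KD regions without an NC overlap it was 1072 bp, in a list of 556239 NC regions, and wide NC-only regions lay a median of 2464.5 bp from the nearest PKM2-KD region. It was within 0.1 kb for 9.22% of them, within 1 kb for 63.1% and within 5 kb for 3863 of the 4067. No NC region lay within 5 kb of 204 of them (5.02%), and 5 directly adjoined one. The median number of NC regions within 5 kb was 3, against 5 around shared regions. The count for shared regions includes the NC regions that they overlap, which the rule excludes for PKM2-KD-only ones. Part of this gap is therefore fixed by the rule. Shared wide regions stood further off, at a median of 8.83 kb, and 41.2% of the PKM2-KD-only regions had one within 5 kb. There were 25041 shared wide regions against 556239 NC regions, so these distances do not compare like with like.

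**Figure D2:**
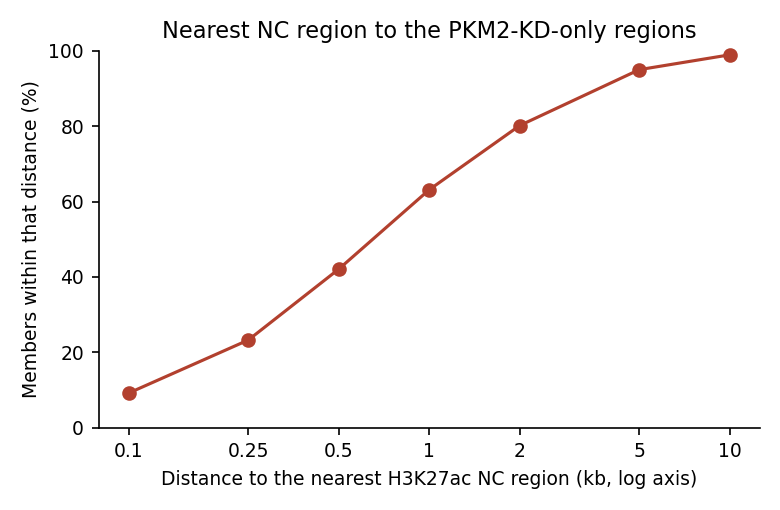
Cumulative share of the 4067 PKM2-KD-only regions (percent, vertical axis) by distance to the nearest H3K27ac NC region (kb, log axis). The curve passes 42.1% at 0.5 kb, 63.1% at 1 kb and 80.2% at 2 kb.

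At the width threshold, 33 regions had exactly the minimum width, and 30 PKM2-KD regions without an NC overlap were 1 bp narrower. Just inside, the region highest in fold lay in BCL6 (fold 13.4, chr3:187743640-187744091), which encodes a transcriptional repressor of germinal centre B cells, and stopped 49 bp from an NC region. Just outside, the highest lay in NFE2L2 (fold 15.2), the gene of the oxidative stress factor NRF2, and stopped 15 bp from an NC region. The threshold therefore parts regions with similar values.

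PKM2-KD-only regions lay less often at gene ends than shared ones. Of them 17.4% (95% Wilson interval 16.3 to 18.6) were within 1 kb of either end of a protein-coding gene, against 25.5% (24.9 to 26.0) of shared regions, a difference of -8.02 percentage points (95% Newcombe interval -9.28 to -6.71). The difference was -1.56 points (-2.95 to -0.169) once shared regions were weighted to the same bands of width and height, and -6.93 points (-8.37 to -5.49) with weights for width and fold. The top bands, from 1200 bp and from 30 fragments, had no upper limit, so widths and heights could still differ within bands. Whether this accounts for the remaining -1.56 points was not tested. A further 46.8% lay inside genes away from their ends (41.0% of shared), and 35.7% lay outside protein-coding genes (33.5%). At annotated 5′ ends the shares were 14.1% and 22.6%, from a promoter table that covered 79.0% of the protein-coding genes and no gene of chromosome 8. Among 1628 wide NC regions with no PKM2-KD counterpart, 6.08% (5.02 to 7.35) lay within 1 kb of a gene end. Intervals throughout cover counting error only, and with 1 library per group they say nothing of the spread between cultures.

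The regions at 5′ ends, shared ones included, stood on a raised background. A background above the commonest of the library was recorded for 77.7% of the PKM2-KD-only regions within 1 kb of a 5′ end, against 54.0% of the others. Their median height was 21 fragments against 15, while their median fold was 6.33 against 7.28. Shared regions went the same way, with a raised background at 73.2% near 5′ ends against 57.2% elsewhere. Their median heights were 38 and 34 fragments, and their median folds 12.3 and 14.1. In both sets the lower fold at 5′ ends came with more fragments, and not with fewer.

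A total of 848 of 19126 protein-coding genes (4.43%) had a PKM2-KD-only region within 1 kb of an end, and 34 of these had 2 or more. By comparison, 6468 genes (33.8%) had a shared wide region there. An NC region of any width was also present within 1 kb of an end at 663 of the 848 genes, and 270 had a shared wide region as well. The other 185 had no NC region at either end. The share of all protein-coding genes with an NC region there is not given here, so this split cannot be read against a background.

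Among regions near a gene end, the highest fold was at ZBED6 and ZC3H11A (25.5, 46 fragments, chr1:203795901-203796664), where ZBED6, a transcription factor gene, lies within ZC3H11A, the gene of an mRNA export protein. IFIT2, an interferon-induced RNA-binding protein, followed at 22.8 with 41 fragments, in a region (chr10:89301223-89301871) that also lay inside LIPA, the lysosomal acid lipase gene. BOP1 and HSF1 shared a 1325 bp region at 22.4 with 44 fragments. HSF1 is the master factor of the heat shock response and BOP1 a ribosome biogenesis factor. The other 7 were at ARPC4 and TADA3 (19.2), TMCO4 (18.4), ME1 (17.9), DDX24 and IFI27L1 (17.9), CYP1A1 (17.3), RAN (16.3) and DNAJB8 (16.3).

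Several of these genes have well-known roles. TADA3 is a subunit of SAGA-type acetyltransferase complexes and ARPC4 a subunit of the actin-nucleating ARP2/3 complex. ME1 is cytosolic malic enzyme, which makes NADPH and pyruvate, and its region (chr6:83430238-83430785) was 3662 bp from any NC region. CYP1A1 is a cytochrome P450 induced through the aryl hydrocarbon receptor, and its region (chr15:74725870-74726507) stopped 75 bp from an NC region. RAN is the GTPase of nuclear transport. Apart from HSF1, each gene at these 10 regions also had an NC region within 1 kb of an end, with between 1 and 4 of them.

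Without any NC region at either end, HSF1 was highest and was followed by LIMD1 (15.5), SNX6 (15.2), ITPR2 (14.5), ZBTB12 (14.1), PI16 (13.6), LOC728743 (12.8), WWOX (12.8), ZNF195 (12.7) and SHCBP1 (12.6). LIMD1 encodes a LIM-domain scaffold that binds LATS kinases of the Hippo pathway, and ITPR2 a calcium channel of the endoplasmic reticulum. At ZNF195, a zinc-finger gene, the 572 bp region was the only PKM2-KD region in the gene or within 5 kb. There 7 NC regions were listed, each at most 112 bp wide, the width of 79.1% of the NC list. At WWOX 102 NC regions and 28 PKM2-KD regions lay in the gene or within 5 kb, and none of the NC ones was wider than 379 bp. The NC list thus held more entries at both genes, though narrow ones. LIMD1 differed, with 45 NC regions in the gene or within 5 kb, up to 4809 bp wide and with folds up to 29.4. It also held 8 shared wide regions, so only its ends lacked an NC region. At the rest of these genes no NC region was wider than 472 bp.

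Some genes carried several PKM2-KD-only regions. One or more lay inside or within 5 kb of 2595 protein-coding genes (13.6%). CDH4 and ZMIZ1 had 9 each, of 24 and 35 wide regions. CDH4, which encodes R-cadherin, spans 688 kb, and ZMIZ1, a transcriptional co-regulator, 248 kb. SMAD3 and MAD1L1 had 8 (of 25 and 26), BRF1 and AHRR 7 (of 10 and 13), and CSF1, DIDO1, SH3BP2 and ABCC12 had 6 (of 6, 8, 11 and 12). The counts were not scaled by gene length.

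**Figure D3:**
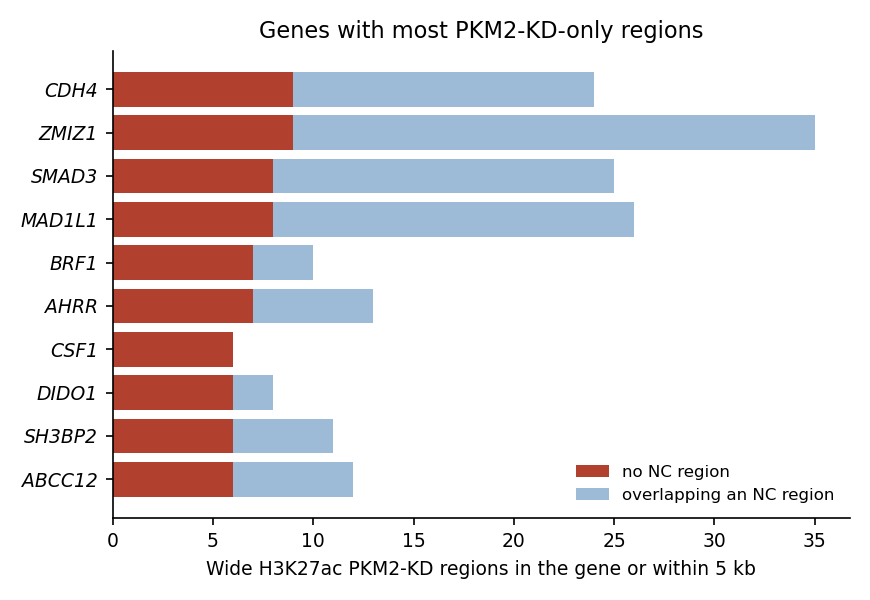
The 10 protein-coding genes with most PKM2-KD-only regions. Bars count the wide H3K27ac PKM2-KD regions inside the gene or within 5 kb, split into those with no NC region (red) and those overlapping one (blue). All 6 wide regions of CSF1 had no NC region, against 9 of 35 at ZMIZ1.

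CSF1 encodes macrophage colony-stimulating factor and is 20.5 kb long (chr1:109910506-109930992). All of its 6 wide regions were PKM2-KD-only. They formed a run over 22.3 kb with no shared wide region between them. Their folds were 7.05, 5.96, 5.42, 16.9, 10.7 and 7.67 in genomic order, with heights of 12, 10, 9, 32, 20 and 30 fragments. The highest lay at chr1:109926936-109927425 and was 1626 bp from an NC region. In and around the gene 15 PKM2-KD regions covered 5.39 kb, against 6 NC regions that covered 0.672 kb, each at most 112 bp wide. That width is held by 79.1% of the whole NC list, so it is not particular to CSF1.

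SMAD3 encodes the receptor-activated transcription factor of TGF-beta and activin signalling. Its 8 PKM2-KD-only regions had folds between 6.19 and 15.2 and heights between 13 and 27 fragments. A run of 4 of them lay within 5.18 kb inside the gene, at distances of 1009 to 2977 bp from the nearest NC region. None of the 8 overlapped a NONO or H3T11ph region, as was so for 74.4% of all PKM2-KD-only regions and 60.0% of shared ones. This does not set SMAD3 apart. The gene also held 17 shared wide regions, and its widest NC region measured 3664 bp.

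AHRR encodes the repressor of the aryl hydrocarbon receptor. Its 7 regions had folds between 2.08 and 11.5 and heights between 10 and 54 fragments. The highest in fragments (54, chr5:391057-391846) had a fold of 9.34 and lay 2501 bp from an NC region. At BRF1, a subunit gene of the RNA polymerase III initiation factor, 50 PKM2-KD regions covered 18.5 kb and 41 NC regions covered 6.26 kb, with no NC region wider than 362 bp.

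The regions were grouped into gene lists of pathways, of which 18 of 327 matched genes (5.50%) had a PKM2-KD-only region within 1 kb of an end, beside 4.43% of all protein-coding genes. Nuclear receptors had 3 of 29. These were VDR, the vitamin D receptor (fold 12.5), RXRB (10.2) and RXRA (9.58), both retinoid X receptors. The interferon and NF-kB list had 3 of 31, with IFIT2, the kinase JAK1 (15.2) and the factor IRF3 (4.13). Acetylation writers, erasers and readers had 2 of 28, namely KAT2A (7.04), an acetyltransferase of SAGA, and KAT7 (3.49), an acetyltransferase of the MYST family. Serine, one-carbon and pentose phosphate enzymes had 2 of 27, with TALDO1, transaldolase (15.8), and RPIA (5.67), which interconverts pentose phosphates.

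Notch signalling had 2 of 30 genes, ADAM10 (13.6), the protease that sheds Notch receptors, and MAML3 (7.67), a Mastermind co-activator. p53 targets and cell-cycle arrest also had 2 of 30, TP53INP1 (11.4) and TP53I3 (1.62, on 78 fragments over a high background). A single gene was found in TGF-beta signalling (SMAD3, of 30), Wnt signalling (FZD1, a Frizzled receptor, fold 8.18, of 30), receptor tyrosine kinases and adaptors (SOS1, a RAS exchange factor, 2.39, of 31) and the stress response list (CEBPB, 7.67, of 30). None of 31 cholesterol and fatty acid synthesis genes had one at an end. Inside the gene or within 5 kb, 60 of the 327 listed genes (18.3%) had one, beside 13.6% of all protein-coding genes. By list this count ran from 2 of 30 for the stress response to 9 of 29 for nuclear receptors, with 8 of 31 for both cholesterol and fatty acid synthesis and interferon and NF-kB, not scaled by gene length. At gene ends, counts of 0 to 3 per list do not set any list apart from the background of 4.43%.

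The PKM2-KD-only regions were overlapped less often than shared ones by NONO NC, H3T11ph NC and H3T11ph PKM2-KD regions, and the size of the gap depended on how width, height and fold were taken into account. For NONO-KD regions the interval of the difference included 0. An H3T11ph PKM2-KD region overlapped 7.82% (7.03 to 8.68) of them, against 18.7% (18.2 to 19.2) of shared regions, a difference of -10.9 points (-11.8 to -9.89). An H3T11ph NC region overlapped 8.95% against 15.5%, a difference of -6.57 points (-7.52 to -5.55). NONO NC regions overlapped 11.7% against 17.6%, a difference of -5.92 points (-6.98 to -4.79), and NONO-KD regions 6.12% against 6.43%, a difference of -0.303 points (-1.07 to 0.531).

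With shared regions weighted to the widths of the PKM2-KD-only ones alone, the differences were -3.62 points (-4.57 to -2.67) for H3T11ph PKM2-KD, -1.46 (-2.45 to -0.462) for H3T11ph NC, -0.486 (-1.59 to 0.622) for NONO NC and 1.5 (0.704 to 2.31) for NONO-KD. Weights for width and fold gave -3.39 points (-4.39 to -2.38), -1.56 (-2.61 to -0.513), -1.37 (-2.55 to -0.192) and 0.612 (-0.239 to 1.46) in the same order. Weights for width and height gave 0.275 points (-0.648 to 1.2) for H3T11ph PKM2-KD, 1.21 (0.209 to 2.22) for H3T11ph NC, 1.00 (-0.155 to 2.16) for NONO NC and 2.03 (1.2 to 2.85) for NONO-KD. The gap for both H3T11ph libraries thus remained with width alone and with width and fold. With width and height it was absent for H3T11ph PKM2-KD and reversed for H3T11ph NC. Wide NC regions without a PKM2-KD counterpart were overlapped least, at 2.27% by H3T11ph PKM2-KD and 5.28% by NONO NC.

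**Figure D4:**
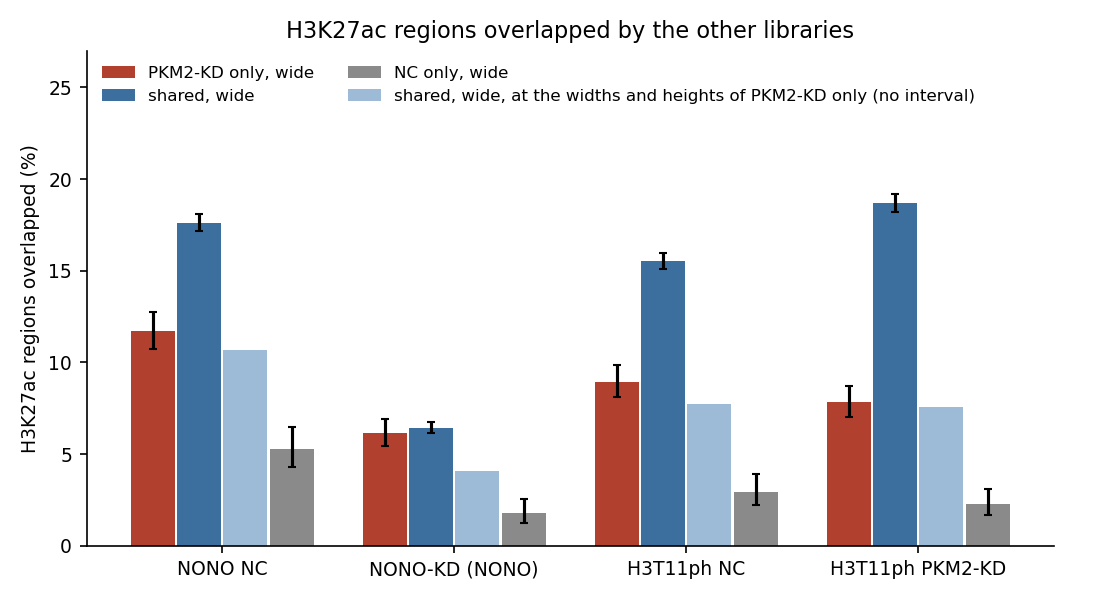
Share of wide H3K27ac regions overlapped by at least 1 bp of a region in each of the 4 other libraries (percent), for PKM2-KD-only, shared and NC-only regions, with 95% Wilson intervals (counting error only). Pale bars give shared regions weighted to the widths and heights of the PKM2-KD-only ones and carry no interval. Weights for width and fold left a lower share than in shared regions for NONO NC and both H3T11ph libraries. PKM2-KD-only regions stand at 7.82% for H3T11ph PKM2-KD, against 18.7% of all shared ones.

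Both H3T11ph libraries overlapped 97 of the PKM2-KD-only regions, H3T11ph NC alone 267, H3T11ph PKM2-KD alone 221, and neither 3482. In the same order, the counts for the 25041 shared regions were 1549, 2337, 3133 and 18022. H3T11ph PKM2-KD alone was thus the more frequent of the single overlaps in shared regions, and H3T11ph NC alone in PKM2-KD-only ones. These counts were not matched for width or height. Shared regions weighted to the width and height bands of the PKM2-KD-only ones were overlapped 7.74% by H3T11ph NC and 7.54% by H3T11ph PKM2-KD. Wide NC-only regions also had more with H3T11ph NC alone (47) than with H3T11ph PKM2-KD alone (36). None of the 4 other lists overlapped 74.4% of the PKM2-KD-only regions (15027 of 25041 shared regions). All 4 overlapped 24 of them (0.590%, against 0.747% of shared regions). Among regions with H3T11ph PKM2-KD, the highest fold was inside STK10, a serine/threonine kinase gene of lymphocytes, at chr5:172128515-172129821. It was 1307 bp wide with a fold of 40.8 on 118 fragments, had no H3T11ph NC overlap and lay 3354 bp from an H3K27ac NC region, and it was also the highest fold of all 4067. SLC7A5, a large neutral amino acid transporter, followed at 23.8, then HSF1 at 22.4, and regions near UVSSA and CALM2 at 20.6 each. Genes with a PKM2-KD-only region at an end and no NC region carried H3T11ph at an end in 28.1% (22.1 to 35.0) in NC and 27.6% (21.6 to 34.4) in PKM2-KD. The same shares were 28.6% and 29.2% for genes with shared wide regions alone, and 18.2% and 17.6% for all protein-coding genes.

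The PKM2-KD-only regions made up a larger part of the wide regions near chromosome ends, taken as the first position and the furthest region or gene of each chromosome. Within 1 Mb of an end they were 28.3% (25.2 to 31.6) of wide PKM2-KD regions, at 1 to 5 Mb 21.4% (19.8 to 23.0), and beyond 50 Mb 12.2% (11.4 to 12.9). Within 5 Mb the share was 23.0%, against 12.4% beyond 20 Mb, a difference of 10.6 points (9.09 to 12.1). It was 8.30 points (6.92 to 9.68) with the far regions weighted to the widths and heights of the near ones. The share near ends was the higher on 19 of 22 chromosomes, with 18, 19 and 22 as exceptions. In the other direction, wide NC regions without a PKM2-KD counterpart were 12.7% (9.50 to 16.8) of wide NC regions within 1 Mb and 8.43% (7.68 to 9.24) beyond 50 Mb.

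**Figure D5:**
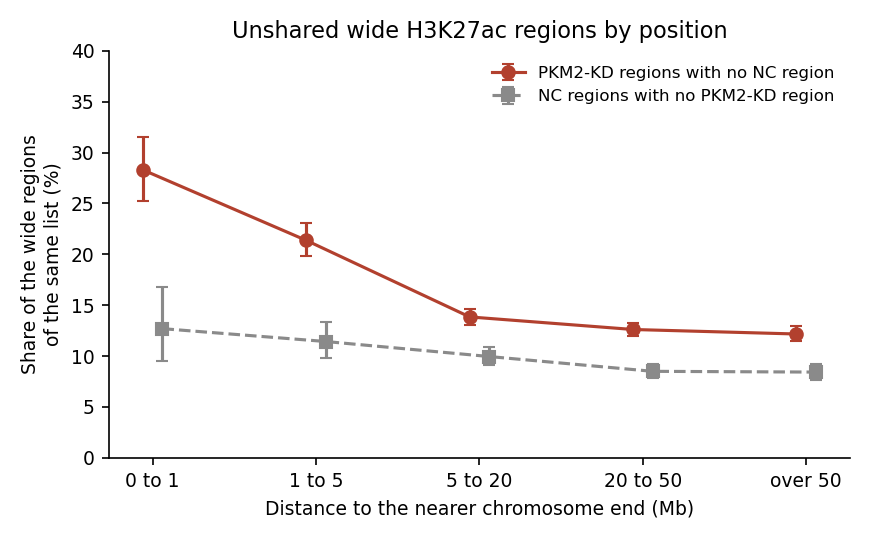
Unshared wide H3K27ac regions as a share of all wide regions of the same list (percent), by distance to the nearer chromosome end (Mb). Red circles are PKM2-KD regions without an NC region and grey squares NC regions without a PKM2-KD region, with 95% Wilson intervals (counting error only). The red share runs from 28.3% within 1 Mb to 12.2% beyond 50 Mb, and the grey from 12.7% to 8.43%.

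The H3K27ac lists as a whole also differed near the ends, where 2.35% of all PKM2-KD regions and 1.70% of all NC regions lay within 1 Mb. The part of this in the result was not tested. By chromosome, the PKM2-KD-only share of wide regions ran from 11% on chromosome 12 to 20.2% on chromosome 20.

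The widest PKM2-KD-only region measured 2898 bp at chr15:101760072-101762969, between TARS3 and the olfactory receptor gene OR4F6, with a fold of 8.58 on 24 fragments, and overlapped a NONO-KD region. The next was 2320 bp wide, 17027 bp from WDR5, which encodes a scaffold of histone methyltransferase complexes, and was overlapped by all 4 other libraries. Regions nearest to CTDP1 (2118 bp wide), UQCRFS1 (1921 bp wide, 2107497 bp from the gene) and OR4F3 (1856 bp wide) were likewise overlapped by all 4. The others of the 10 widest lay nearest to or in TENM3, PTPRN2, CROCC2, PDCD2 and, for another region, OR4F3. Each of the 10 was overlapped by at least 1 other library. Overlap with any of the 4 rose with width, from 19.8% (17.7 to 22.2) of PKM2-KD-only regions below 500 bp to 68.7% (56.8 to 78.5) of the 67 of 1200 bp or more, against 23.9% (22.3 to 25.6) and 61.7% (60.4 to 62.9) of shared regions of those widths.

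Neighbouring PKM2-KD-only regions, with no shared wide region between them, formed 483 runs of 2, 107 of 3, 29 of 4, 8 of 5 and 2 of 6, and 2612 stood singly. The 2 longest in number were that of CSF1 and a run across 140 kb at OR4F15 and OR4F6 on chromosome 15, with folds of 2.42 to 8.58. A run of 5 covered 6.25 kb inside BRF1, with folds of 3.80 to 7.59. Runs of 5 also lay 1472820 bp and 1155214 bp from the nearest gene on chromosomes 1 and 19, with folds of 2.75 to 5.15 and 2.86 to 8.92. They spanned chr1:122935949-123014470 and chr19:25285182-25310102. No filter for repeated sequence was applied to the lists here, and the aligner is not given. How uniquely reads were placed at these runs and at the widest regions is therefore not known.

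The promoters reached by PKM2-KD-only regions resembled those reached by shared regions in base composition. Over the 300 bases around the start, 386 promoters of 335 genes that overlapped a PKM2-KD-only region had a median GC content of 63.7% and a median of 26 CpG. The 5853 promoters with a shared wide region had 64.7% and 26, and all 21041 promoters 62.7% and 21. Searched on both strands, the ETS letters CCGGAAG were found in 21.0% (17.2 to 25.3) of the first set, 22.6% (21.6 to 23.7) of the second and 12.9% of all promoters. The GC box letters GGGCGG were found in 67.1%, 69.2% and 56.6%, and the TATA box letters TATAAA in 3.37%, 5.01% and 9.54%. The AP-1 letters TGANTCA were found in 3.37% (1.98 to 5.68), 5.52% (4.96 to 6.13) and 6.09%. The CCAAT letters were found in 38.9%, 35.3% and 34.4%, the TEAD letters GGAATG in 9.33%, 11.5% and 12.2%, and the RUNX letters TGTGGTT in 3.89%, 2.94% and 3.68%. The cAMP response element TGACGTCA was found in 2.07% (1.05 to 4.04), 4.27% (3.78 to 4.82) and 2.30%, and the NRF1 motif in 3.63%, 2.49% and 1.48%. For each of these 9 motifs the intervals of the first and second sets overlapped, narrowly for the cAMP response element. Overlap of separate intervals does not show that the shares are alike, and no interval of the difference was computed for the motifs. No motif contains the letters of another, and a match is a description of the letters only.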

How the data were processed

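H3K27ac, H3T11ph and NONO were profiled by CUT&Tag in 6 MDA-MB-231 libraries, each its own group by its title. The authors deposited 1 narrowPeak list per library, with a score per region, the fold (a ratio of summit to background), and p and q as −log10 values. Per the labels' processing notes, build hg38, cutadapt 1.18, SAMtools 1.3.1 and MACS2 2.1.1.20160309 were used. The aligner and any control library are not given in the sources used here, and the H3K27ac antibody was stated in the methods.

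Regions overlapped when they shared at least 1 bp. Summit heights were the whole numbers that gave the deposited −log10 p within 0.002 (99.7% of NC and all but a few PKM2-KD rows tried), after the NC pileup was scaled by 0.521. Genes and promoters came from RefSeq (GRCh38.p14). Shares carry 95% Wilson intervals and differences 95% Newcombe intervals, or normal intervals where shared regions were reweighted to bands of width, of width and height (regions without a recovered height went to the top band), or of width and fold. These were computed with Python 3.11.15 and SciPy 1.17.1, and the scripts were tested on simulated data. No p-value was computed with 1 library per group.

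Named by rule were the 10 regions highest in fold near a gene end, the 10 widest, the 10 genes with most regions, the 10 genes highest in fold without an NC region, the 5 regions highest in fold with H3T11ph PKM2-KD, and up to 4 genes per gene list. CCDC9 was chosen for its sequence. The regions, gene lists and motifs were chosen with earlier results of these data known. Alternatives changed the width, the q threshold, the distance to NC and the gene window, and others on height and on reweighting were chosen after seeing the data.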

Additional observations from a re-analysis of the deposited data

How the results depend on the processing

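No paired analysis was possible because there is only 1 library in every group, which also means that no library could be left out. The number of PKM2-KD-only regions followed the definition. It was 284 at a width of at least 8 times the narrowest region of the list, 8919 when only NC regions with −log10 q of at least 5 counted, and 1499 when no NC region was allowed within 1 kb. The genes with one at an end were then 90, 2236 and 296, and 1706 with a window of 5 kb. The excess near chromosome ends (10.6 points) stayed between 3.73 and 11.3 points in every alternative run for it, and regions stayed less frequent at gene ends than shared ones in every alternative run.

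The differences from shared regions in overlap with other libraries were less stable. For NONO NC the difference was 0.690 points at that larger width, -0.486 (interval including 0) with width bands, -1.37 with width and fold bands and 1.00 with width and height bands. For NONO-KD it was 8.07 at that larger width, 1.85 without NC regions within 1 kb, 0.266 at a height of at least 2 times the lowest of NC, 1.5 with width bands, 0.612 with width and fold bands and 2.03 with width and height bands. For H3T11ph NC it was 0.127 at that larger width and 1.21 with width and height bands, but -2.52 without NC regions within 1 kb, -1.46 with width bands and -1.56 with width and fold bands. For H3T11ph PKM2-KD it was 0.275 with width and height bands, but -6.81 at the larger width, -3.62 with width bands and -3.39 with width and fold bands. Reweighting and the height limit were chosen after seeing the data. The cause was not tested. With 1 library per group, the spread between cultures is unknown, and low regions close to the listing threshold of either library cannot be told from regions missed by the caller.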
